A study of Mus musculus with 8 samples.

Results

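Mammary basal cells sorted as Lgr5+ and high for Tspan8 were compared with basal cells sorted as Lgr5- and high for Tspan8. The comparison, Lgr5+T8hi against Lgr5-T8hi, rests on 4 of the 8 libraries of the series, chosen by the population named in each title: 2 libraries of each population, 1 from each of 2 batches. The other 4 libraries are Lgr5+T8- and Lgr5-T8-, basal cells sorted as negative for Tspan8, 2 of each. They served to estimate the spread and to show whether Lgr5 went with the same genes there. All 4 groups came from 10-week-old female C57BL/6 mice with the Lgr5-GFP-IRES-CreERT2 allele, in which green fluorescent protein made from the Lgr5 locus reports the gene's activity. The Lgr5- cells carry that allele too. The limits of the gate for the reporter are not given in the labels, so Lgr5+ and Lgr5- name the sorted fractions and not cells with and without the transcript. Cells without Tspan8, as written below, are likewise the sorted T8- fraction, in which Tspan8 transcript was still found. Nothing in the labels says if the 2 libraries of a group stem from different animals or from pools. A p-value here therefore measures the spread between these libraries, which may be technical.

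Basal cells form the outer layer of the mammary duct, contract to move milk and include cells that can rebuild the gland on transplantation. Lgr5 binds R-spondins, secreted proteins that raise the response of a cell to Wnt ligands by keeping Wnt receptors on its surface, and it marks stem cells of the gut, the hair follicle and other epithelia. Tspan8 is a tetraspanin, one of a family of membrane proteins that organise integrins and receptors. In the mammary gland both have been used to divide basal cells into fractions with different regenerative capacity.

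The libraries had the expression of basal cells. The keratin Krt5 stood at 2613 and 2538 CPM in Lgr5+T8hi and 2227 and 2370.1 CPM in Lgr5-T8hi cells, the basal transcription factor Trp63 at 173 and 227 CPM against 197 and 239 CPM, and the smooth muscle actin Acta2 at 3815 and 3329 CPM against 4098 and 4018 CPM in the same order. CPM are read counts scaled to the same library total, and values are given for batch 1 and then batch 2. The luminal keratin Krt8 was present at 835 and 603 CPM against 746 and 523 CPM. Total counts of the 4 T8hi libraries ran from 24662492 to 38384875. Libraries of the same batch deviated together from their group means, with a correlation across genes of 0.55, and batch was a term of every fit unless said otherwise.

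Lgr5 itself (chromosome 10, 115450314 to 115587780, GRCm38.p6) was measured at 174 and 193 CPM in Lgr5+T8hi and 119 and 129 CPM in Lgr5-T8hi cells. The libraries of the 2 populations did not overlap, but the Lgr5- cells held a large share of the Lgr5+ level. The log2 difference was 0.57 ± 0.11, edgeR adjusted p = 0.0148, where the value after ± is a standard error from the fit. Within basal cells without Tspan8 the same sort gave 185 and 212 CPM against 58.3 and 50.5 CPM, a log2 difference of 1.86 ± 0.11. The 2 differences were unequal by -1.30 ± 0.15 (edgeR adjusted p = 0.00164). Tspan8 (chromosome 10, 115816817 to 115849893) also differed within the T8hi gate, at 289 and 261 CPM in Lgr5+T8hi and 167 and 150.2 CPM in Lgr5-T8hi cells. The log2 difference of Tspan8 was 0.79 ± 0.11, edgeR adjusted p = 0.00394, so the Lgr5+ libraries held more transcript of both sort markers. Within the T8- fraction edgeR also called both sort genes higher with Lgr5. Their summed level, mostly Lgr5, was 195 and 219 CPM in Lgr5+T8- against 62.7 and 53.7 CPM in Lgr5-T8- cells. Each gene given here with a log2 difference missed the threshold without at least 1 of the 4 T8hi libraries (edgeR adjusted p 0.0547 to 0.224).

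**Figure D1:**
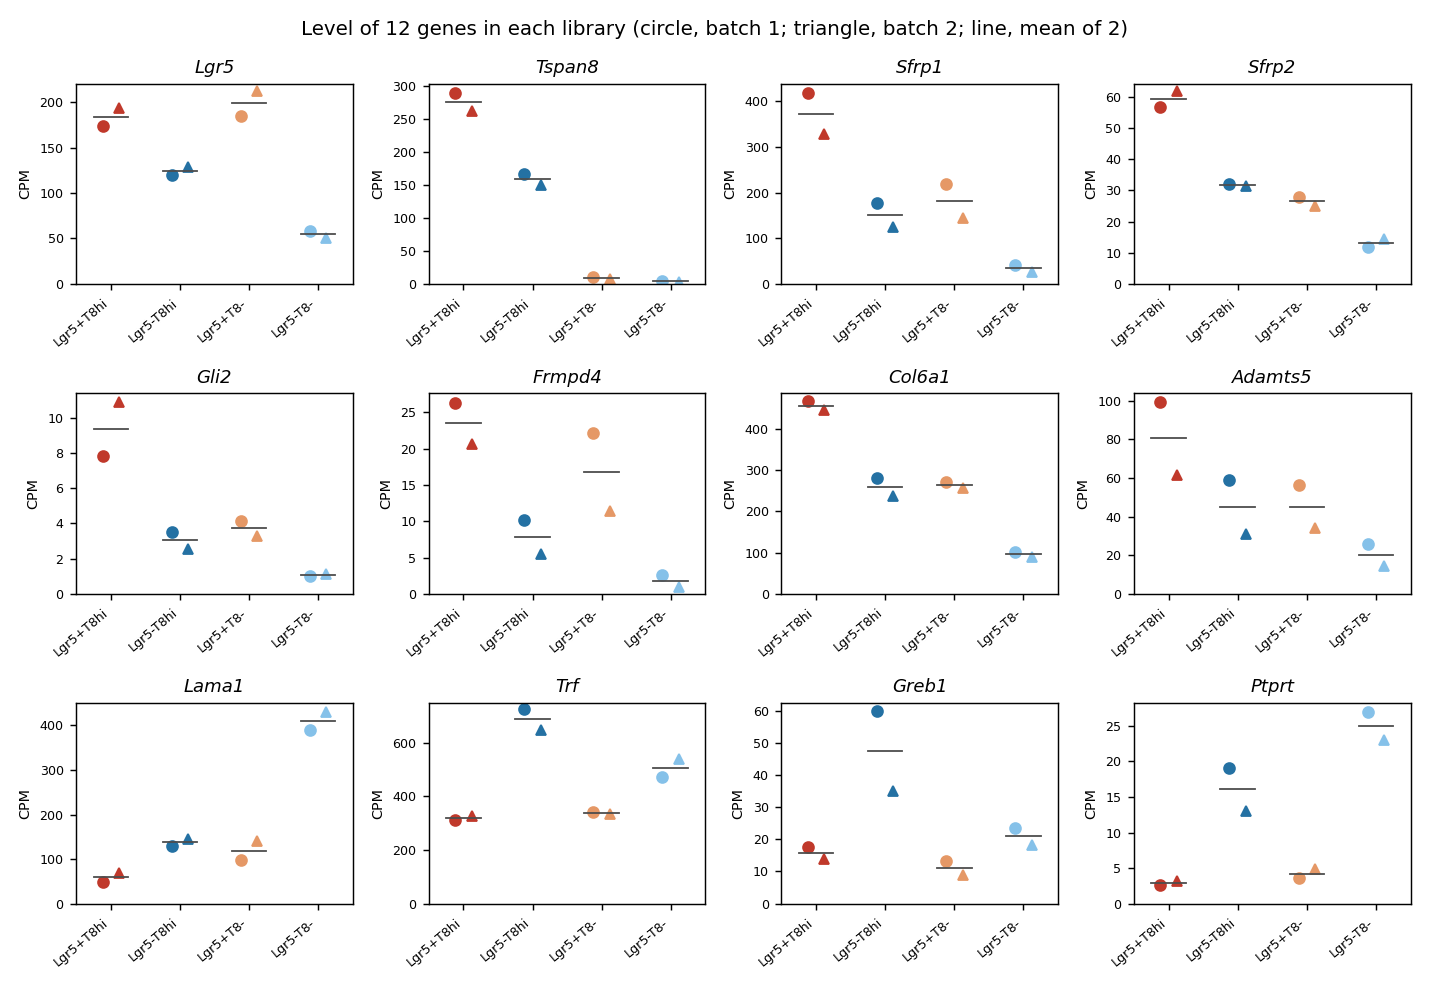
Level of 12 genes in CPM (vertical axis from 0) in each of the 8 libraries, by population on the horizontal axis; circles are batch 1, triangles batch 2 and lines the mean of 2 libraries. Lgr5 and Tspan8 are above their Lgr5-T8hi levels in both Lgr5+T8hi libraries, as are Sfrp1, Sfrp2, Gli2, Frmpd4, Col6a1 and Adamts5, while Lama1, Trf, Greb1 and Ptprt are below them.

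Of 16526 genes tested, 379 (2.29%) were higher and 173 (1.05%) lower in Lgr5+T8hi cells at an adjusted p under 0.05 from edgeR's quasi-likelihood F-test. All 552 (3.34%) had the same sign in both batches, but they were selected with these same libraries, so this is not separate support. The same holds for their direction in the fits below and for the lack of overlap between the groups among them. Over all genes tested the log2 differences of the 2 batches correlated at 0.539. DESeq2 called 386 higher (2.34%) and 180 lower (1.09%), and limma-voom 426 (2.58%) and 177 (1.07%). At an unadjusted p under 0.05, edgeR gave 1348 higher (8.16%) and 885 lower (5.36%). The groups did not overlap for 358 of the 379 and 165 of the 173, beside 16.8% of all genes tested that were higher and 14.6% that were lower in both Lgr5+T8hi libraries. These counts rest on the batch term: with no replicate block the same test called 0 genes (752 up and 342 down before adjustment). Without the block DESeq2 called 117 higher and 58 lower, and limma-voom called 0. They also rest on both pairs of libraries. Leaving out Lgr5+T8hi replicate 1 gave 32 higher and 11 lower, and leaving out its replicate 2 gave 23 and 24. Leaving out Lgr5-T8hi replicate 1 gave 44 and 25, and its replicate 2 gave 243 and 130. For Lgr5-T8- these were 597 and 330 (replicate 1) and 587 and 356 (replicate 2). The 4 T8hi libraries fitted alone, with 1 residual degree of freedom, gave 881 and 587. All 552 genes kept their direction in each of these fits, and 18 passed the threshold with each of the 8 libraries left out in turn, 10 higher and 8 lower. Those with a symbol, listed after their values were seen, are the higher genes Adamts2, Adamts5, Col6a1, Col6a2, Frmpd4, Gfra2, Ighm, Nrp1 and Sfrp1 and the lower genes Ccn4, Col6a4, Fbln7, Greb1, Lama1, Pdk4, Ptprt and Trf.

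**Figure D2:**
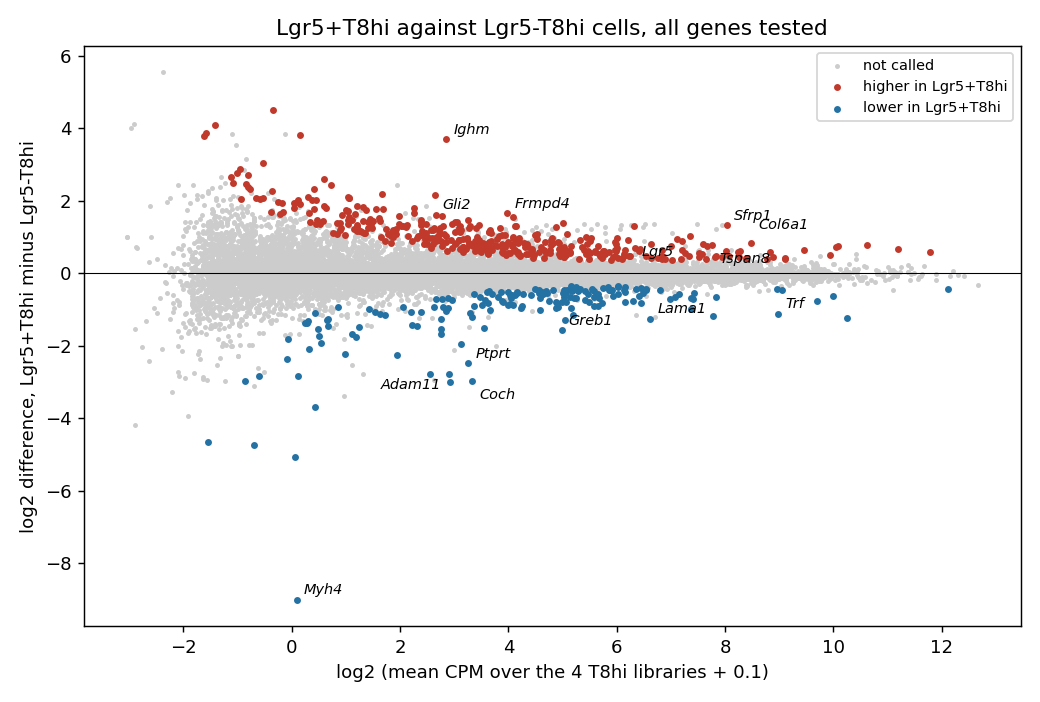
Each point is 1 of the genes tested; the horizontal axis is log2 of the mean CPM over the 4 T8hi libraries plus 0.1, and the vertical axis is the log2 difference, Lgr5+T8hi minus Lgr5-T8hi. Red marks the 379 genes higher and blue the 173 genes lower at an adjusted p under 0.05, and grey the genes not called.

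Markers of cells other than basal epithelium moved with the groups and are given before the other genes. The 18 endothelial markers summed to 798 and 905 CPM in Lgr5+T8hi and 276 and 511 CPM in Lgr5-T8hi cells. All 18 had a positive log2 difference with a median of 1.15, beside -0.01 over all genes tested, but only 3 passed the threshold (0 to 14 with 1 library left out; DESeq2 called 8 and limma-voom 5). At an unadjusted p under 0.05, 16 were higher. Pecam1, an adhesion molecule of vessel walls, stood at 124 and 138 CPM in Lgr5+T8hi and 31.7 and 73.4 CPM in Lgr5-T8hi cells, and Cdh5, the cadherin of endothelial junctions, at 78.1 and 78.1 CPM against 21.4 and 43.2 CPM. Emcn, a sialomucin of capillaries and veins, stood at 26.1 and 24.4 CPM against 6.48 and 10.8 CPM (1.56 ± 0.25, edgeR adjusted p = 0.0165). Cd34 was at 48.5 and 55.4 CPM against 22.5 and 32.9 CPM (0.92 ± 0.14, edgeR adjusted p = 0.00768). Esam, an endothelial adhesion molecule, was at 46.4 and 45.4 CPM against 16.8 and 26.4 CPM (1.10 ± 0.20, edgeR adjusted p = 0.0329). Mmrn2, a matrix protein of vessels that is in no list, stood at 38.6 and 53.9 CPM against 11.2 and 25.2 CPM (1.40 ± 0.20, edgeR adjusted p = 0.011). Both Lgr5+T8hi libraries were above both Lgr5-T8hi libraries for each of these 6 genes, and no endothelial marker was at 0 in any library.

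Blood cell genes followed the same order. The 20 immune markers summed to 102 and 164 CPM in Lgr5+T8hi and 67.9 and 88.9 CPM in Lgr5-T8hi cells, and of 18 tested 8 were higher and 0 lower (0 to 11 higher with 1 library left out; DESeq2 called 5 and limma-voom 7), with a median of 1.54. Ptprc, the pan-leukocyte antigen CD45, stood at 5.91 and 8.51 CPM in Lgr5+T8hi and 2.42 and 2.02 CPM in Lgr5-T8hi cells (1.68 ± 0.22, edgeR adjusted p = 0.00318). H2-Aa, a chain of class II antigen-presenting molecules, was at 15.6 and 19.2 CPM against 8.57 and 6.63 CPM (1.20 ± 0.18, edgeR adjusted p = 0.00621). Laptm5, a lysosomal protein of blood cells, was at 5.71 and 8.85 CPM against 2.36 and 1.84 CPM (1.79 ± 0.29, edgeR adjusted p = 0.00854). Ighm, the heavy chain of IgM, had the largest log2 difference among the higher genes named by the rule: 15.9 and 10.6 CPM against 1.15 and 0.879 CPM (3.70 ± 0.37, edgeR adjusted p = 0.00268). Gimap4, a GTPase of lymphocytes, was at 7.21 and 7.83 CPM against 1.76 and 3.75 CPM (1.47 ± 0.31, edgeR adjusted p = 0.0368). Erythroid genes summed to 23.99 and 29.8 CPM in Lgr5+T8hi and 5.22 and 9.24 CPM in Lgr5-T8hi cells, with Hbb-b1 at 8.71 and 11.5 CPM against 1.73 and 2.85 CPM (2.15 ± 0.30, edgeR adjusted p = 0.0062). Hbb-bs was at 4.53 and 5.56 CPM against 0.824 and 1.38 CPM (2.19 ± 0.31, edgeR adjusted p = 0.00428). The globin genes are near-identical copies, so the split of reads between them is uncertain. Among 8 listed erythroid genes 5 were tested and 3 were higher. Among immune markers, the B cell gene Ms4a1 was at 0 in Lgr5-T8hi replicate 2. Other genes with the highest differences were Slco2b1, an organic anion transporter, at 9.34 and 13.99 CPM against 3.103 and 5.70 CPM (1.42 ± 0.23, edgeR adjusted p = 0.00904). C1qtnf9, a secreted adiponectin relative, was at 13.3 and 14.03 CPM against 3.19 and 7.03 CPM (1.47 ± 0.24, edgeR adjusted p = 0.0111). Parvb, an integrin-linked actin adaptor, was at 10.3 and 9.94 CPM against 2.03 and 4.77 CPM (1.60 ± 0.33, edgeR adjusted p = 0.0429). Syt15, a synaptotagmin, was at 4.90 and 9.83 CPM against 1.24 and 4.55 CPM (1.43 ± 0.28, edgeR adjusted p = 0.0234). Ighm passed the threshold with each of the 8 libraries left out in turn. All others given here with a log2 difference missed the threshold without at least 1 of Lgr5+T8hi replicate 1, Lgr5+T8hi replicate 2 and Lgr5-T8hi replicate 1 (edgeR adjusted p 0.0583 to 0.344), while Ptprc and H2-Aa missed it without Lgr5+T8hi replicate 2 alone. Emcn, Esam, Parvb, Gimap4 and Mmrn2 also missed it without Lgr5-T8- replicate 1; Emcn, Esam, Parvb and Gimap4 also missed it without Lgr5-T8- replicate 2. Leaving out a library moved the log2 difference by over 1.5 times for Parvb (0.98 to 2.41, without Lgr5-T8hi replicate 1 and Lgr5-T8hi replicate 2) and Gimap4 (0.95 to 2.14, without Lgr5-T8hi replicate 1).

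Stromal markers were also higher in part. The fibroblast list summed to 2469 and 2686 CPM in Lgr5+T8hi and 2156 and 1893 CPM in Lgr5-T8hi cells, and 5 of 16 members were higher and 0 lower (0 to 7 higher with 1 library left out; DESeq2 called 8 and limma-voom 5), with a median of 0.70. Col1a2, a chain of type I collagen, stood at 232 and 278 CPM in Lgr5+T8hi and 166 and 132 CPM in Lgr5-T8hi cells (0.77 ± 0.13, edgeR adjusted p = 0.0106). Mfap5, a glycoprotein of elastic microfibrils, was at 12.4 and 11.6 CPM against 4.86 and 4.07 CPM (1.43 ± 0.18, edgeR adjusted p = 0.00268). Dpt, the matrix protein dermatopontin, was at 38.1 and 39.6 CPM against 24.9 and 17.9 CPM (0.87 ± 0.15, edgeR adjusted p = 0.0103). Pi16 was at 21.4 and 26.9 CPM against 13.1 and 11.3 CPM (0.97 ± 0.19, edgeR adjusted p = 0.0268). Of 12 pericyte markers 2 were higher, Vtn, vitronectin, at 8.56 and 8.70 CPM against 3.35 and 5.17 CPM (1.03 ± 0.20, edgeR adjusted p = 0.0168). Mcam was at 311 and 213 CPM against 242 and 142 CPM (0.48 ± 0.11, edgeR adjusted p = 0.0345), where the groups overlapped. Of 10 adipocyte markers tested 1 was higher by edgeR (3 by DESeq2 and 2 by limma-voom). The lipoprotein lipase Lpl was at 18.2 and 19.4 CPM against 13.5 and 11.9 CPM (0.57 ± 0.13, edgeR adjusted p = 0.0399), while the adipocyte hormone Adipoq was at 0.115 and 0.189 CPM against 0.22 and 0.0533 CPM and was not tested. Summed adipocyte markers stood at 593 and 472 CPM in Lgr5+T8hi and 255 and 289 CPM in Lgr5-T8hi cells. Fabp4 was the most abundant of them, and 7 or 8 of the 14 members were under 1 CPM in each T8hi library. Skeletal muscle genes went the other way at low levels: the list summed to 11.2 and 10.7 CPM in Lgr5+T8hi and 28.997 and 17.5 CPM in Lgr5-T8hi cells, and 4 of 12 were lower (0 to 6 with 1 library left out; DESeq2 called 1 and limma-voom 5). Myh4, a fast muscle myosin, had 0 counts in both Lgr5+T8hi libraries and 110 and 32 counts in the Lgr5-T8hi libraries, at least 19.4-fold lower at a floor of 3 counts per library. The bound was 34.9-fold within batch 1 and 7.51-fold within batch 2. Acta1, skeletal actin, was at 1.12 and 0.87 CPM against 3.71 and 2.96 CPM (-1.75 ± 0.32, edgeR adjusted p = 0.0119). The troponin Tnnt3 was at 0.317 and 0.227 CPM against 1.92 and 0.879 CPM (-2.36 ± 0.47, edgeR adjusted p = 0.0196). The creatine kinase Ckm was at 0.663 and 0.681 CPM against 2.31 and 1.57 CPM (-1.52 ± 0.36, edgeR adjusted p = 0.0408). Each gene given here with a log2 difference missed the threshold without at least 1 of the 4 T8hi libraries (edgeR adjusted p 0.0566 to 0.543). Leaving out a library moved the log2 difference by over 1.5 times for Mcam (0.31 to 0.65, without Lgr5+T8hi replicate 2). In sorted bulk cells, more contaminating cells of a type and more RNA per cell cannot be told apart, and the part of these cell types in the results that follow was not tested.

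**Figure D3:**
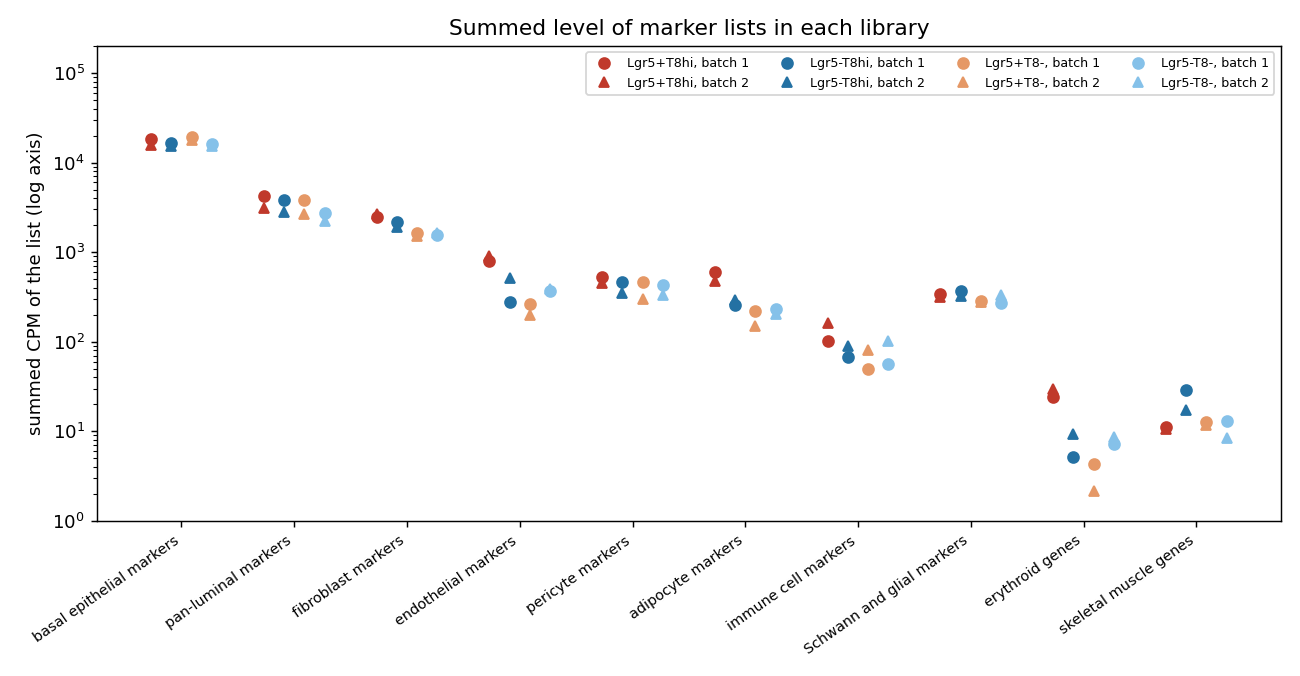
Summed CPM of 10 marker lists (logarithmic vertical axis) in each of the 8 libraries; colours are populations, circles batch 1 and triangles batch 2. Endothelial, erythroid and adipocyte sums are highest in the 2 Lgr5+T8hi libraries, and Fabp4 is the most abundant adipocyte marker in T8hi cells. The skeletal muscle sum is highest in the 2 Lgr5-T8hi libraries. Basal marker sums lie between 15122 and 19399 CPM.

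Genes of the Wnt pathway, in which secreted ligands stabilise beta-catenin or act on cell shape and polarity, were called among secreted inhibitors and ligands. Of 15 secreted Wnt inhibitors tested, 3 were higher and 0 lower by edgeR, beside 2.29% higher and 1.05% lower of all genes tested. DESeq2 called 3 higher and 1 lower, and limma-voom 4 higher and 0 lower. The log2 difference was positive for 8 and negative for 7, with a median of 0.24 (0.15 to 0.51 with 1 library left out). At an unadjusted edgeR p under 0.05, 4 were higher and 3 lower. Sfrp1 (chromosome 8, 23411383 to 23449632), which binds Wnt ligands outside the cell, stood at 419 and 328 CPM in Lgr5+T8hi and 176 and 125 CPM in Lgr5-T8hi cells. Both Lgr5+T8hi libraries lay far above both others, and the log2 difference was 1.32 ± 0.10, edgeR adjusted p = 0.000222. Its relative Sfrp2 was measured at 56.6 and 61.7 CPM in Lgr5+T8hi and 31.9 and 31.3 CPM in Lgr5-T8hi cells (0.90 ± 0.11, edgeR adjusted p = 0.0021). Dkk3, a member of the Dickkopf family, stood at 314 and 312 CPM against 225 and 225 CPM (0.48 ± 0.09, edgeR adjusted p = 0.0154). Among 14 Wnt ligands tested 2 were higher and 0 lower: Wnt11, a ligand best known for signalling without beta-catenin, at 261 and 192 CPM against 164 and 149 CPM (0.52 ± 0.10, edgeR adjusted p = 0.015). Wnt9a was at 12.1 and 14.9 CPM against 7.88 and 10.01 CPM (0.60 ± 0.13, edgeR adjusted p = 0.0241). The groups did not overlap for any of these 5 genes.

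No member passed the threshold among 16 Wnt receptors (edgeR; unadjusted p under 0.05 for 0 higher and 2 lower; DESeq2 and limma-voom called 0), 6 other Lgr receptors, R-spondins and their ubiquitin ligases (0 higher and 2 lower unadjusted; 0 by the other tools), or 16 beta-catenin targets (1 higher and 2 lower unadjusted; DESeq2 called 1 lower and limma-voom 0). Axin2, a standard reporter of beta-catenin activity, was at 20.2 and 25.3 CPM against 25.3 and 28.1 CPM. The receptor Lgr4 was at 266 and 267 CPM against 231 and 242 CPM and Lgr6 at 58.2 and 89.5 CPM against 81.7 and 119.7 CPM. Ccn4 (also Wisp1), a matricellular protein first described as a Wnt-induced gene and listed with the matrix genes, was lower: 5.91 and 6.24 CPM in Lgr5+T8hi and 17.4 and 17.04 CPM in Lgr5-T8hi cells (-1.51 ± 0.16, edgeR adjusted p = 0.00161). Sfrp1 and Ccn4 passed the threshold with each of the 8 libraries left out in turn. The remaining genes each given here with a log2 difference missed the threshold without at least 1 of the 4 T8hi libraries (edgeR adjusted p 0.0519 to 0.368), while Sfrp2 missed it without Lgr5+T8hi replicate 2 alone.

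Hedgehog signalling, in which a ligand frees Smo to turn on Gli transcription factors, had 2 of 13 genes higher and 0 lower (0 to 2 higher with 1 library left out). Gli2 was measured at 7.84 and 10.9 CPM in Lgr5+T8hi and 3.51 and 2.56 CPM in Lgr5-T8hi cells, a log2 difference of 1.62 ± 0.23, edgeR adjusted p = 0.00403, and Gli1, itself a target of the pathway, at 17.7 and 16.9 CPM against 9.01 and 7.003 CPM (1.13 ± 0.24, edgeR adjusted p = 0.0421). The receptor and target Ptch1 was at 13.1 and 18.1 CPM against 14.7 and 13.02 CPM with overlapping groups. Of 37 genes of the TGF-beta and BMP pathways 2 were higher and 0 lower, with a median of 0.07. At an unadjusted edgeR p under 0.05, 7 were higher and 3 lower. Over all genes tested 2.29% were called higher and 1.05% lower, which stands beside each count in this paragraph. Bmp2, a secreted ligand, was higher at 13.8 and 8.17 CPM against 7.06 and 4.53 CPM (0.91 ± 0.15, edgeR adjusted p = 0.00874). Tgfbi, a matrix protein induced by TGF-beta, was at 16.8 and 14.8 CPM against 11.1 and 9.05 CPM (0.65 ± 0.14, edgeR adjusted p = 0.0247). In the ErbB pathway the 2 called genes among 17 were ligands of the same receptor, Egfr, and went opposite ways. Areg, amphiregulin, the ligand that relays oestrogen signals in the ducts, was higher at 41.3 and 39.1 CPM in Lgr5+T8hi and 26.9 and 23.4 CPM in Lgr5-T8hi cells (0.68 ± 0.10, edgeR adjusted p = 0.00529), and Ereg, epiregulin, lower at 14.04 and 12.6 CPM against 25.6 and 23.99 CPM (-0.90 ± 0.18, edgeR adjusted p = 0.0315). Of 21 FGF pathway genes 0 were higher and 2 lower, the receptor Fgfr4 at 2.19 and 1.59 CPM against 4.72 and 3.49 CPM (-1.12 ± 0.21, edgeR adjusted p = 0.0144). Spred1, an inhibitor of Ras signalling, was at 89.1 and 99.8 CPM against 133 and 124 CPM (-0.45 ± 0.11, edgeR adjusted p = 0.0459). Of 16 genes of the insulin-like growth factor axis only Igfbp6, a binding protein of Igf2, passed in edgeR, at 43.5 and 40.1 CPM against 31.9 and 25.4 CPM (0.56 ± 0.13, edgeR adjusted p = 0.036). DESeq2 called 2 higher and 1 lower in that list, and 5 were higher and 3 lower at an unadjusted edgeR p under 0.05. Of 21 Notch pathway genes 0 were called by edgeR, DESeq2 or limma-voom (unadjusted p under 0.05 for 4 higher and 1 lower). Each gene given here with a log2 difference missed the threshold without at least 1 of the 4 T8hi libraries (edgeR adjusted p 0.0555 to 0.77), while Gli2 missed it without Lgr5+T8hi replicate 2 alone. Gli1 also missed it without Lgr5-T8- replicate 1 and Lgr5-T8- replicate 2. Leaving out a library moved the log2 difference by over 1.5 times for Spred1 (-0.60 to -0.29, without Lgr5-T8hi replicate 1).

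Genes of milk and of luminal progenitors were lower in part in Lgr5+T8hi cells. Over all genes tested, 14.6% were lower in both Lgr5+T8hi libraries without overlap, and 16.8% were higher. Of 16 tested, 6 were lower and 0 higher (1 to 9 lower with 1 library left out), with a median of -0.50, and 13 of 16 were lower in both libraries with no overlap. Trf (chromosome 9, 103208876 to 103230286), transferrin, the iron carrier of milk and serum, was measured at 312 and 326 CPM in Lgr5+T8hi and 726 and 648 CPM in Lgr5-T8hi cells. Its log2 difference was -1.11 ± 0.11, edgeR adjusted p = 0.000732, with all 4 libraries clearly apart by group. Lalba, the lactose synthase cofactor of milk, stood at 0.605 and 0.719 CPM against 3.51 and 2.64 CPM (-2.22 ± 0.30, edgeR adjusted p = 0.00331). Csn3, kappa-casein, was at 40.8 and 35.6 CPM against 81.3 and 54.7 CPM (-0.81 ± 0.13, edgeR adjusted p = 0.00756). Lcn2, an iron-scavenging lipocalin, was at 920.3 and 678 CPM against 1454 and 1035 CPM (-0.64 ± 0.10, edgeR adjusted p = 0.00669). The progenitor genes Elf5, at 2.91 and 5.52 CPM against 5.57 and 7.70 CPM, and Kit, at 12.8 and 18.4 CPM against 19.99 and 22.8 CPM, did not pass the threshold.

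Most hormone-sensing luminal genes had a positive log2 difference (15 of 18), and 3 had a negative one. Before adjustment 8 were higher and 1 lower at an edgeR p under 0.05. Of 18 tested, 2 were higher and 1 lower (0 to 8 higher with 1 library left out; limma-voom called 5 higher), with a median of 0.70. Foxa1, the pioneer factor of oestrogen receptor binding, stood at 20.4 and 15.9 CPM in Lgr5+T8hi and 10.2 and 8.60 CPM in Lgr5-T8hi cells (0.94 ± 0.16, edgeR adjusted p = 0.0087), and the other higher gene was Areg. Greb1 (chromosome 12, 16670615 to 16801394), a coregulator induced by oestrogen receptor, was lower at 17.4 and 13.9 CPM in Lgr5+T8hi and 59.7 and 34.96 CPM in Lgr5-T8hi cells (-1.56 ± 0.12, edgeR adjusted p = 0.000222). The receptor genes Esr1, at 11.8 and 10.97 CPM against 15.1 and 9.91 CPM, and Pgr, at 19.3 and 25.4 CPM against 18.3 and 22.8 CPM, overlapped between groups. Of 18 pan-luminal markers only the mucin Muc1 passed, at 33.2 and 24.96 CPM against 23.9 and 18.9 CPM (0.44 ± 0.11, edgeR adjusted p = 0.045). Trf and Greb1 passed the threshold with each of the 8 libraries left out in turn. Other genes given here with a log2 difference missed the threshold without at least 1 of the 4 T8hi libraries (edgeR adjusted p 0.0527 to 0.693).

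Some genes of the basal programme itself were called, beside 3.34% of all genes tested (2.29% higher and 1.05% lower). Of 22 basal epithelial markers 1 was higher and 1 lower: Vim, the intermediate filament vimentin, at 994 and 724 CPM in Lgr5+T8hi and 632 and 464 CPM in Lgr5-T8hi cells (0.65 ± 0.12, edgeR adjusted p = 0.0118). Il17b, a cytokine of basal cells, was at 48 and 47.4 CPM against 75.3 and 72.7 CPM (-0.63 ± 0.11, edgeR adjusted p = 0.00874). Of 24 contractile genes 0 were higher and 2 lower, the enteric smooth muscle actin Actg2 at 103 and 125 CPM against 137 and 204 CPM (-0.56 ± 0.10, edgeR adjusted p = 0.0131). Kcnmb1, the beta subunit of a calcium-gated potassium channel, was at 13.3 and 13.2 CPM against 19.1 and 21.1 CPM (-0.60 ± 0.10, edgeR adjusted p = 0.00808). Among 20 reported mammary stem cell markers 3 were higher and 1 lower. Nrp1, a coreceptor of semaphorins and VEGF, was at 26.5 and 33.99 CPM in Lgr5+T8hi and 13.5 and 17.7 CPM in Lgr5-T8hi cells (0.96 ± 0.11, edgeR adjusted p = 0.00164). Inpp5d, a lipid phosphatase of stem and blood cells, was at 2.59 and 3.89 CPM against 1.26 and 1.62 CPM (1.15 ± 0.24, edgeR adjusted p = 0.0251). Procr, the protein C receptor, was at 126 and 49.7 CPM against 82.9 and 39.7 CPM (0.47 ± 0.10, edgeR adjusted p = 0.0297), where the batches differed more than the groups and the groups overlapped. The lower gene was Itgb3, the integrin beta-3 subunit, at 18.5 and 30.6 CPM against 36.1 and 48.01 CPM (-0.80 ± 0.12, edgeR adjusted p = 0.00613). Nrp1, Inpp5d and Procr are also made by endothelial or blood cells, whose markers were higher in the same libraries, as given above. Positional factors had a positive log2 difference in 18 of 21, with a median of 0.40. Without overlap 10 lay higher, beside 16.8% of all genes tested. At an unadjusted p under 0.05, 7 were higher. After adjustment 0 were called higher, and the 3 with a negative difference were called lower, the T-box factor Tbx2 at 5.82 and 5.63 CPM against 10.3 and 8.84 CPM (-0.74 ± 0.13, edgeR adjusted p = 0.0091). Dach1 was at 10.3 and 11.2 CPM against 18.8 and 18.6 CPM (-0.80 ± 0.14, edgeR adjusted p = 0.0117). Eya1 was at 0.75 and 0.945 CPM against 1.57 and 2.64 CPM (-1.29 ± 0.25, edgeR adjusted p = 0.015). Nrp1 passed the threshold with each of the 8 libraries left out in turn. Other genes given here with a log2 difference missed the threshold without at least 1 of the 4 T8hi libraries (edgeR adjusted p 0.0594 to 0.703). Leaving out a library moved the log2 difference by over 1.5 times for Procr (0.30 to 0.63, without Lgr5-T8hi replicate 1).

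The matrix genes held many of the calls that withstood leaving out a library. Of 25 collagens listed as interstitial 4 were higher and 1 lower (DESeq2 called 7 higher and 1 lower), with a median of 0.26. Over all genes tested 2.29% were called higher and 1.05% lower. At an unadjusted edgeR p under 0.05, 12 of the list were higher and 3 lower. The list was chosen with earlier results known and leaves out Col6a4, Col9a1 and Col20a1, which were called lower, as given below. Its excess of higher calls thus depends on its membership and does not hold for collagens as a whole. Col6a1 and Col6a2, chains of the same collagen VI trimer and neighbours on chromosome 10, changed alike. Col6a1 (chromosome 10, 76708792 to 76726044) stood at 468 and 446 CPM in Lgr5+T8hi and 281 and 237 CPM in Lgr5-T8hi cells (0.83 ± 0.09, edgeR adjusted p = 0.00164). Col6a2 was at 241 and 246 CPM against 149 and 132 CPM (0.80 ± 0.09, edgeR adjusted p = 0.00164). Col27a1, a fibrillar collagen of cartilage and skin, was at 84.9 and 83.8 CPM against 50.3 and 36.2 CPM (0.98 ± 0.13, edgeR adjusted p = 0.00318). Col11a1, a minor fibrillar collagen, was the lower one at 21.3 and 23.9 CPM in Lgr5+T8hi and 45.9 and 54.03 CPM in Lgr5-T8hi cells (-1.14 ± 0.17, edgeR adjusted p = 0.0136). Of the collagens outside this list, Col6a4, another collagen VI chain, was lower at 16.7 and 22.05 CPM in Lgr5+T8hi and 43.8 and 49.6 CPM in Lgr5-T8hi cells (-1.28 ± 0.11, edgeR adjusted p = 0.000562), opposite to Col6a1 and Col6a2. Col9a1, a collagen on the surface of fibrils, was also lower at 3.17 and 3.101 CPM against 10.1 and 10.2 CPM (-1.68 ± 0.23, edgeR adjusted p = 0.00694), and so was Col20a1 at 3.43 and 3.18 CPM against 13.8 and 6.36 CPM (-1.54 ± 0.23, edgeR adjusted p = 0.00566). In the basement membrane, the sheet on which basal cells sit, 1 of 25 genes was higher and 2 lower. Lama1 (chromosome 17, 67697127 to 67822645), the laminin alpha-1 chain, was at 49.01 and 68.7 CPM in Lgr5+T8hi and 129.9 and 146 CPM in Lgr5-T8hi cells, with both Lgr5+T8hi libraries well below the others, a log2 difference of -1.25 ± 0.12, edgeR adjusted p = 0.000693. The laminin gamma-3 chain Lamc3 was at 5.62 and 5.63 CPM against 9.69 and 8.28 CPM (-0.67 ± 0.15, edgeR adjusted p = 0.029). The linker nidogen Nid2 was at 37.3 and 34.6 CPM against 28.97 and 20.9 CPM (0.54 ± 0.12, edgeR adjusted p = 0.0275). Col6a1, Col6a2, Col6a4 and Lama1 passed the threshold with each of the 8 libraries left out in turn. All other genes given here with a log2 difference missed the threshold without at least 1 of the 4 T8hi libraries (edgeR adjusted p 0.0508 to 0.522), while Col27a1 missed it without Lgr5+T8hi replicate 2 alone.

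Called genes that cut or bind matrix were mostly higher. Of 27 matrix proteases and inhibitors 5 were higher and 0 lower (2 to 8 higher with 1 library left out). Adamts5, a protease of aggrecan and versican, was measured at 99.5 and 61.6 CPM in Lgr5+T8hi and 58.98 and 30.97 CPM in Lgr5-T8hi cells. The batches lay far apart, but within each batch the Lgr5+T8hi library was higher, and the log2 difference was 0.87 ± 0.09, edgeR adjusted p = 0.00124. Adamts2, which trims procollagens, was at 83.6 and 77.4 CPM against 50.1 and 42.4 CPM (0.80 ± 0.09, edgeR adjusted p = 0.00124). Adamts1 was at 4698 and 3781 CPM against 3221 and 2453 CPM (0.58 ± 0.10, edgeR adjusted p = 0.00874). Mmp3, stromelysin, was at 7.93 and 8.32 CPM against 4.20 and 4.53 CPM (0.90 ± 0.17, edgeR adjusted p = 0.0144). Of 33 matricellular and growth-factor-binding genes 6 were higher and 2 lower (0 to 12 higher with 1 library left out). Postn, periostin, stood at 3274 and 2456 CPM in Lgr5+T8hi and 2079 and 1550.1 CPM in Lgr5-T8hi cells (0.66 ± 0.10, edgeR adjusted p = 0.00431). Fbln1, fibulin-1, was at 59.6 and 71.6 CPM against 36.1 and 50.9 CPM (0.61 ± 0.10, edgeR adjusted p = 0.00842). Ogn, osteoglycin, was at 20.1 and 20.9 CPM against 12.5 and 9.91 CPM (0.88 ± 0.16, edgeR adjusted p = 0.0144). Fibroblasts make several of these proteins, and the fibroblast markers given above were higher in the same libraries. Of 18 integrins 0 were higher and 2 lower, Itgb3 and Itga8, a receptor subunit for nephronectin, at 70.98 and 62.6 CPM against 115 and 90.6 CPM (-0.62 ± 0.10, edgeR adjusted p = 0.00669). Adamts5 and Adamts2 passed the threshold with each of the 8 libraries left out in turn. The remaining genes given here with a log2 difference missed the threshold without at least 1 of the 4 T8hi libraries (edgeR adjusted p 0.0539 to 0.233).

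The genes with the lowest log2 differences among called genes averaging 5 CPM or more included the following. Adam11, a catalytically inactive membrane protein of neurons, was at 1.38 and 1.85 CPM in Lgr5+T8hi and 18.3 and 8.25 CPM in Lgr5-T8hi cells (-3.002 ± 0.35, edgeR adjusted p = 0.00471). Coch, cochlin, a matrix protein of the inner ear, stood at 2.77 and 1.59 CPM against 23.9 and 11.6 CPM (-2.98 ± 0.28, edgeR adjusted p = 0.00269). Gfra3, the receptor of artemin, was at 1.59 and 1.21 CPM against 14.6 and 5.51 CPM (-2.77 ± 0.33, edgeR adjusted p = 0.00352). Ptprt (chromosome 2, 161521988 to 162661147), a receptor tyrosine phosphatase, was at 2.62 and 3.14 CPM against 19.1 and 13.1 CPM (-2.48 ± 0.23, edgeR adjusted p = 0.00135). In Lgr5-T8hi cells the batch 1 library held the higher level of each of these 4 genes. Of 25 potassium channel genes 0 were higher and 4 lower by edgeR (DESeq2 called 5 lower and limma-voom 3), beside 1.05% lower over all genes tested. The list was split, with 13 positive and 12 negative log2 differences and a median of 0.03. At an unadjusted edgeR p under 0.05, 3 were higher and 8 lower. Among those called, Kcna2 was at 1.87 and 1.81 CPM against 18.2 and 7.70 CPM (-2.77 ± 0.47, edgeR adjusted p = 0.035). Kcna6 was at 3.55 and 3.55 CPM against 16.4 and 11.2 CPM (-1.95 ± 0.29, edgeR adjusted p = 0.0135). Kcnk5 was at 26.6 and 25.5 CPM against 38.6 and 37.9 CPM (-0.55 ± 0.09, edgeR adjusted p = 0.00904). The last was Kcnmb1, given above. The related Kcna1 was at 4.50 and 5.97 CPM against 30.5 and 12.97 CPM and did not pass (edgeR adjusted p = 0.122). Of 12 Schwann and glial markers only Gfra3 passed in edgeR and limma-voom, while DESeq2 called 3 lower (0 to 5 lower in edgeR with 1 library left out). The log2 difference was negative for 9 of the 12, with a median of -0.44, and 6 were lower at an unadjusted p under 0.05. The list summed to 339 and 319.6 CPM in Lgr5+T8hi and 364 and 323 CPM in Lgr5-T8hi cells, of which Sox10, which basal cells also express, made up 135 and 126 CPM against 124 and 126 CPM. The part of glial cells in these values was not tested.

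Axon guidance genes, which also direct epithelial and vessel growth, had 6 of 40 members higher and 4 lower (1 to 7 higher and 0 to 7 lower with 1 library left out). Slit2, a repellent, was lower at 35.1 and 34.3 CPM in Lgr5+T8hi and 78.1 and 54.3 CPM in Lgr5-T8hi cells (-0.91 ± 0.12, edgeR adjusted p = 0.00269), and so was its receptor Robo2 at 5.51 and 6.96 CPM against 11.9 and 14.5 CPM (-1.09 ± 0.17, edgeR adjusted p = 0.00679). Sema3d, a secreted semaphorin, was at 5.16 and 4.16 CPM against 11.1 and 7.99 CPM (-1.03 ± 0.14, edgeR adjusted p = 0.00318). Sema5b, named among the lowest genes, was at 3.55 and 4.27 CPM against 7.91 and 10.9 CPM (-1.25 ± 0.17, edgeR adjusted p = 0.00326). Ntn4, a netrin of basement membranes, was higher at 105 and 94.6 CPM in Lgr5+T8hi and 70.5 and 53.1 CPM in Lgr5-T8hi cells (0.70 ± 0.10, edgeR adjusted p = 0.00326), as was Nrp1. Frmpd4 (chromosome X, 167471306 to 168577241), a scaffold protein of synapses and among the highest genes, stood at 26.3 and 20.7 CPM in Lgr5+T8hi and 10.2 and 5.43 CPM in Lgr5-T8hi cells (1.66 ± 0.19, edgeR adjusted p = 0.00269), and the 2 populations did not overlap. Ptprt and Frmpd4 passed the threshold with each of the 8 libraries left out in turn. Further genes given here with a log2 difference missed the threshold without at least 1 of the 4 T8hi libraries (edgeR adjusted p 0.0502 to 0.289), while Adam11, Slit2 and Sema3d missed it without Lgr5+T8hi replicate 1 alone and Ntn4 missed it without Lgr5+T8hi replicate 2 alone.

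Several groups of surface and secreted proteins gave a few calls each. Of 22 tight junction genes 2 were higher: Ocln, occludin, at 57.1 and 32.7 CPM in Lgr5+T8hi and 34.2 and 18.8 CPM in Lgr5-T8hi cells (0.77 ± 0.11, edgeR adjusted p = 0.00461), where batches overlapped across groups but each batch gave a higher Lgr5+T8hi value, and Jam2, a junctional molecule also of vessel walls, at 62.8 and 63.7 CPM against 34.8 and 40.4 CPM (0.75 ± 0.10, edgeR adjusted p = 0.00326). Of 15 secretory defence genes 4 were higher and 1 lower. The antiprotease Slpi was at 1511 and 1200.0 CPM against 914 and 708 CPM (0.74 ± 0.10, edgeR adjusted p = 0.00318), its relative Wfdc2 at 33.6 and 32.4 CPM against 19.5 and 16.96 CPM (0.86 ± 0.15, edgeR adjusted p = 0.0131). The membrane mucin Muc15 was at 57.7 and 58.3 CPM against 37.9 and 39.996 CPM (0.58 ± 0.11, edgeR adjusted p = 0.0144), while the lower one was Lcn2. Of 25 tetraspanins other than Tspan8, 2 were higher and 2 lower. Tspan13 was at 24.97 and 27.3 CPM against 12.9 and 20.8 CPM (0.66 ± 0.14, edgeR adjusted p = 0.0226). Cd53, a leukocyte tetraspanin, was at 3.37 and 3.55 CPM against 0.934 and 0.959 CPM (1.87 ± 0.28, edgeR adjusted p = 0.00471), beside the immune markers given above. Upk1b, an uroplakin, was at 1.87 and 3.18 CPM against 5.52 and 7.78 CPM (-1.41 ± 0.18, edgeR adjusted p = 0.00268). Tspan5 was at 39.99 and 39.6 CPM against 56.2 and 54.2 CPM (-0.47 ± 0.09, edgeR adjusted p = 0.0168). Serping1, the inhibitor of complement C1, was the only one of 16 serpins called by edgeR, while DESeq2 and limma-voom each called 1 higher and 1 lower. It was at 109 and 95.4 CPM against 72.8 and 61.6 CPM (0.60 ± 0.09, edgeR adjusted p = 0.00621). Of 13 motile cilia genes 1 was higher, the axonemal dynein Dnah11 at 4.15 and 4.80 CPM against 2.77 and 1.57 CPM (1.07 ± 0.26, edgeR adjusted p = 0.0461), with a list median of 0.46; DESeq2 called 0. Each gene given here with a log2 difference missed the threshold without at least 1 of the 4 T8hi libraries (edgeR adjusted p 0.0508 to 0.525), while Upk1b missed it without Lgr5+T8hi replicate 1 alone. Dnah11 also missed it without Lgr5+T8- replicate 1 and Lgr5+T8- replicate 2. Leaving out a library moved the log2 difference by over 1.5 times for Dnah11 (0.68 to 1.505, without Lgr5+T8hi replicate 2).

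Interferon-stimulated genes had 8 higher members, as many as the immune markers. Cells that sense interferon activate the factor complex ISGF3, which binds a response element in the promoters of these genes. Promoters of genes called higher are shown as examples in which the letters of that element were found. They are the 250 bases before the annotated start from RefSeq for GRCm38.p6, written 5′ to 3′ along the gene, with capitals marking GAAA, any pair of bases and GAAA again on either strand (TTTC, any pair and TTTC when read on the other one).
Ifit1 (chr19:34640639-34640888, plus strand): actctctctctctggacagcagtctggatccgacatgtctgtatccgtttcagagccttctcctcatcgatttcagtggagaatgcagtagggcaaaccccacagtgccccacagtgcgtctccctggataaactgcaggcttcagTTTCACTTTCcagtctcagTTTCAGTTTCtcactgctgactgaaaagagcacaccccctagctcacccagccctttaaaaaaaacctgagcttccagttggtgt
Ifit3 (chr19:34583279-34583528, plus strand): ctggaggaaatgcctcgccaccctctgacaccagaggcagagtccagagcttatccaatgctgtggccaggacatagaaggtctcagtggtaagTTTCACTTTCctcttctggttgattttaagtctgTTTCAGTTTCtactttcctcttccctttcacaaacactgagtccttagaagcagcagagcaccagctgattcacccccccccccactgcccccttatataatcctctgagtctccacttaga
Cxcl10 (chr5:92348890-92349139, minus strand): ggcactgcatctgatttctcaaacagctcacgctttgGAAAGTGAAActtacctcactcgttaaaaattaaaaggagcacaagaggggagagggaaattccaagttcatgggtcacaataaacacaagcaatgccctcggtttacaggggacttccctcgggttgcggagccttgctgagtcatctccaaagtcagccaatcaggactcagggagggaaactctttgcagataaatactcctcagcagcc
Ifit1 and Ifit3 each held 2 matches and Cxcl10 held 1, while Ifi44 and Ifit2, also called higher, held 0. The motif was found in such windows of 5 of 7 called genes that had one (71.4%) and of 10 of 18 tested list members that had one (55.6%), beside 936 of all 27025 genes with a window (3.46%). A match describes letters and not a bound site.

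Of 25 interferon-stimulated genes tested, 8 were higher and 0 lower (0 to 8 higher with 1 library left out; DESeq2 called 6 and limma-voom 8), with a median of 0.23. Ifit1, which binds viral RNA, was at 39.8 and 21.2 CPM in Lgr5+T8hi and 16.9 and 11.8 CPM in Lgr5-T8hi cells (1.05 ± 0.13, edgeR adjusted p = 0.00268), and its relative Ifit3 at 17.4 and 12.02 CPM against 10.3 and 7.94 CPM (0.69 ± 0.14, edgeR adjusted p = 0.0228). Cxcl10, a chemokine that draws T cells, was at 55.3 and 56.1 CPM against 32.05 and 31.3 CPM (0.81 ± 0.13, edgeR adjusted p = 0.00756). Ifi44 was at 5.36 and 4.01 CPM against 2.53 and 2.05 CPM (1.03 ± 0.21, edgeR adjusted p = 0.0219). Both Lgr5+T8hi libraries were above both others for all 4, and for 11 of the 25 tested in all. In 2 of the 25 both were below, and the rest overlapped, beside 16.8% above and 14.6% below over all genes tested. Isg15, a ubiquitin-like protein, was at 24.5 and 15.6 CPM against 18.9 and 14.3 CPM. Mx1 was at 1.21 and 1.10 CPM against 1.37 and 1.33 CPM. Of 34 chemokines, cytokines and receptors 5 were higher and 0 lower. They included Cxcl9 at 21.6 and 25.4 CPM against 13.4 and 12.04 CPM (0.88 ± 0.15, edgeR adjusted p = 0.0103). Il33, an alarmin of epithelial and endothelial cells, was at 14.1 and 14.5 CPM against 7.72 and 7.51 CPM (0.91 ± 0.17, edgeR adjusted p = 0.0149). Il6 was at 175 and 82.6 CPM against 78.2 and 59.2 CPM (0.82 ± 0.14, edgeR adjusted p = 0.0143). Il1b was at 1.10 and 4.27 CPM against 0.357 and 0.533 CPM (2.44 ± 0.47, edgeR adjusted p = 0.0181). For Il1b the Lgr5+T8hi batch 2 library held much of the signal. Immune and endothelial marker sums, given above, were higher in the same libraries, and their part in these values was not tested. Each gene given here with a log2 difference missed the threshold without at least 1 of the 4 T8hi libraries (edgeR adjusted p 0.0583 to 0.373). Il6 also missed it without Lgr5-T8- replicate 1. Leaving out a library moved the log2 difference by over 1.5 times for Il6 (0.55 to 1.10, without Lgr5-T8hi replicate 1) and Il1b (1.51 to 3.07, without Lgr5-T8hi replicate 2).

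Genes of growth and of cell upkeep gave no calls in edgeR. Of 40 proliferation genes 0 passed in edgeR, DESeq2 or limma-voom, and 0 had an unadjusted p under 0.05. Mki67, the proliferation antigen, was at 20.2 and 49.9 CPM against 19.2 and 59.9 CPM, with the batches further apart than the groups. Among 19 cell-cycle inhibitor and quiescence genes, likewise, 0 passed by any of the 3 tools and 0 before adjustment. Of 25 immediate early genes 0 passed (1 higher unadjusted) and of 15 heat shock genes 0 passed in edgeR (1 higher and 1 lower unadjusted, 1 higher by DESeq2). Of 15 factors of epithelial-mesenchymal transition 0 passed (2 higher unadjusted). The 38 ribosomal protein genes had 0 calls (1 lower unadjusted) and a median of -0.10, with a negative log2 difference for all 38. That sign was found for 8620 of the 16526 genes tested. The 43 oxidative phosphorylation genes had 0 calls with 0 before adjustment, and 31 differences were negative and 12 positive. Of 22 cholesterol synthesis genes 0 passed in edgeR (4 lower unadjusted, 1 lower by DESeq2), and 18 differences were negative and 4 positive. Apart from those calls, DESeq2 and limma-voom called 0 in these lists.

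**Figure D4:**
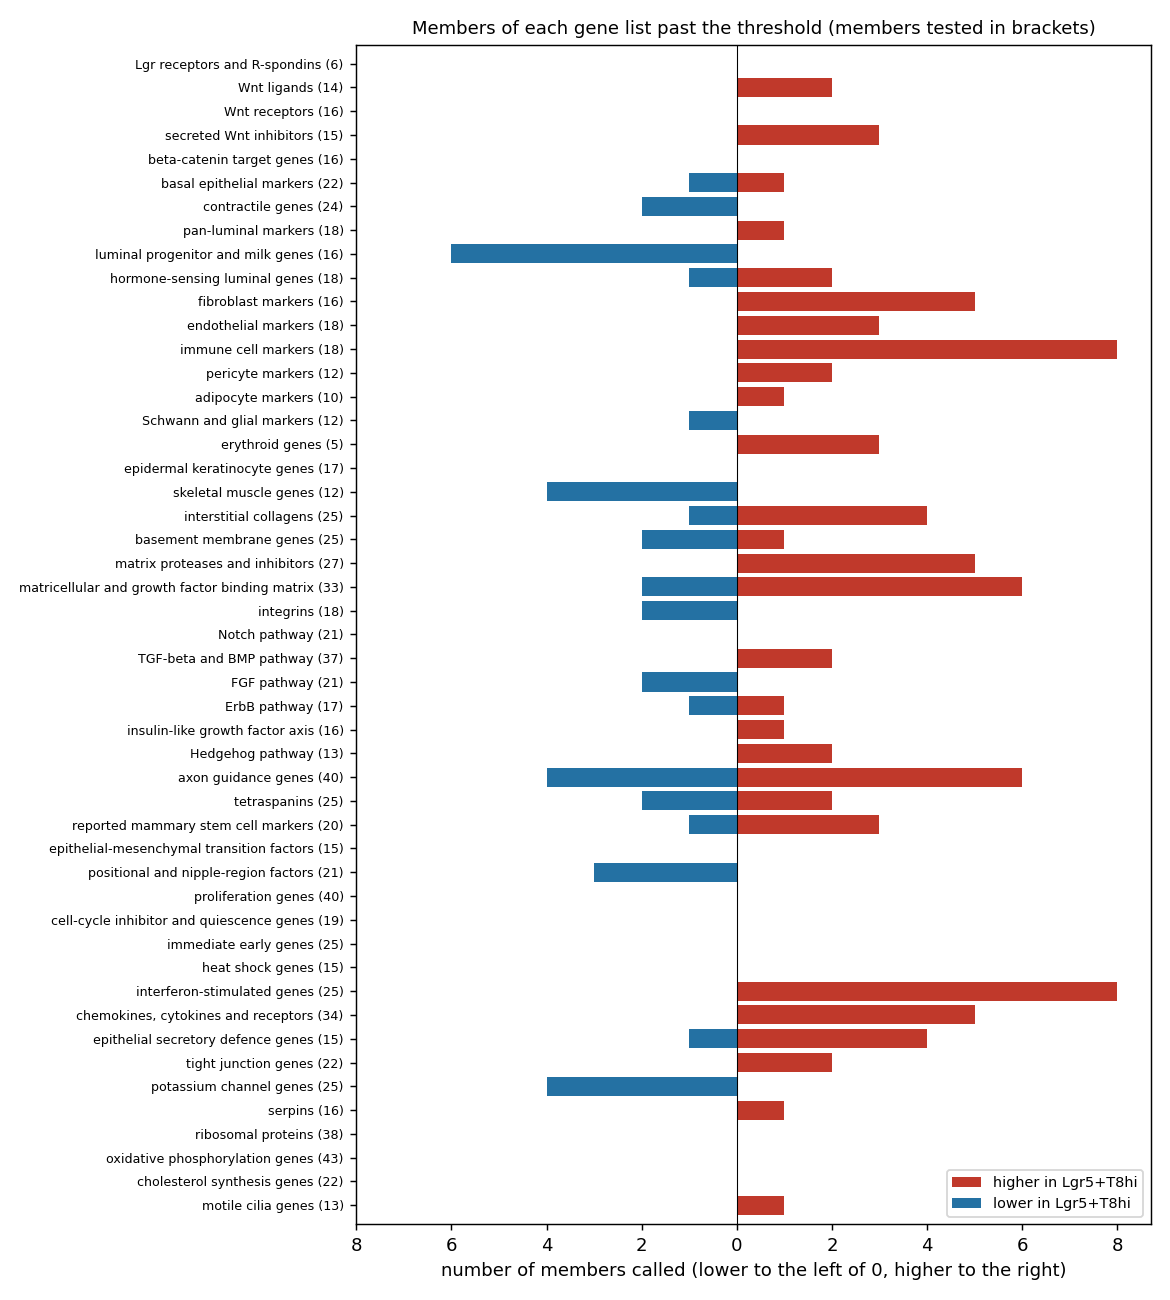
Number of members of each gene list past an adjusted p of 0.05, with genes higher in Lgr5+T8hi to the right of 0 and lower ones to the left; the number tested is in brackets. Immune markers and interferon-stimulated genes have 8 higher members each, luminal progenitor and milk genes have 6 lower members, and the proliferation, ribosomal and oxidative phosphorylation lists have none called.

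The same sort by Lgr5 within basal cells without Tspan8 shares no library with the comparison above. Both came from the same fit with the same estimate of spread for each gene, so calls in both are not independent. Within cells without Tspan8 the sort called 630 genes higher (3.81%) and 834 lower (5.05%). Of the 173 genes lower in Lgr5+T8hi cells, 121 (69.9%, and 14.5% of the 834) were also lower there, 0 were higher (0 to 4 with 1 library left out) and 52 were not called. Their median log2 difference in cells without Tspan8 was -0.74. Of the 379 higher genes, 125 (33.0%, and 19.8% of the 630) were also higher there, 40 (10.6%, and 4.80% of the 834) were lower and 214 were not called, with a median of -0.05. Over the fits with 1 library left out, genes higher in both ran from 10 to 195, genes higher and then lower from 1 to 70, and genes lower in both from 11 to 216. The lowest of these counts came without either Lgr5+T8hi library and the highest without Lgr5-T8- replicate 2.

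A test of the difference between the 2 Lgr5 effects called 361 genes with a more positive effect in T8hi cells (2.18%) and 60 with a more negative one (0.363%). The counts fell to 116 and 14 (Lgr5+T8hi replicate 1 left out) and to 104 and 15 (its replicate 2). They were 223 and 16 (Lgr5-T8hi replicate 1 left out), 327 and 33 (its replicate 2) and 167 and 28 (Lgr5+T8- replicate 2). For Lgr5-T8- they were 313 and 116 (replicate 1 left out) and 422 and 162 (replicate 2). With no replicate block they were 1 and 0. Of the 379 higher genes 134 had a more positive and 20 a more negative effect in T8hi cells, and of the 173 lower genes 9 and 3. These genes were selected on the T8hi difference, which is also a term of this test. The split is therefore partly set by the selection and is not separate support.

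Genes that led the difference of effects were of several kinds. Frmpd4 followed Lgr5 in both settings but more steeply without Tspan8, at 22.2 and 11.4 CPM in Lgr5+T8- and 2.55 and 0.882 CPM in Lgr5-T8- cells, a log2 difference of 3.28 ± 0.23 there and a difference of effects of -1.63 ± 0.30 (edgeR adjusted p = 0.0224). Sfrp1 did likewise, at 219.6 and 144 CPM against 42.5 and 25.9 CPM there, and differed by -1.10 ± 0.15 (edgeR adjusted p = 0.00285). Ocln was at 24.3 and 13.4 CPM against 4.33 and 3.31 CPM there and differed by -1.51 ± 0.18 (edgeR adjusted p = 0.00164). Esyt3, a membrane tether, was at 26.6 and 30.4 CPM against 27.4 and 29.9 CPM in T8hi cells and 12.6 and 16.5 CPM against 5.58 and 4.48 CPM without Tspan8 (-1.52 ± 0.20, edgeR adjusted p = 0.00285). Adamts6, a metalloprotease, was at 7.03 and 6.31 CPM against 11.7 and 7.96 CPM and 6.33 and 4.70 CPM against 2.61 and 2.79 CPM (-1.57 ± 0.26, edgeR adjusted p = 0.00966). Nrp1 changed sides: it was at 5.92 and 6.86 CPM in Lgr5+T8- and 14.7 and 16.6 CPM in Lgr5-T8- cells, so higher with Lgr5 in T8hi and lower with it otherwise (2.25 ± 0.16, edgeR adjusted p = 9.49e-05).

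Sema3g, a semaphorin made by vessel walls, was at 10.3 and 23.3 CPM in Lgr5+T8hi and 4.01 and 11.7 CPM in Lgr5-T8hi cells (1.13 ± 0.19, edgeR adjusted p = 0.00874), with the batches apart and the groups overlapping, and at 1.89 and 2.91 CPM in Lgr5+T8- and 5.33 and 9.19 CPM in Lgr5-T8- cells (2.72 ± 0.29 for the difference of effects, edgeR adjusted p = 0.00121). The call in T8hi cells was lost without Lgr5+T8hi replicate 1, Lgr5+T8hi replicate 2 and Lgr5-T8hi replicate 1 in turn (edgeR adjusted p 0.12 to 0.178). Endothelial marker sums followed the same order, 263 and 198 CPM in Lgr5+T8- against 371 and 389 CPM in Lgr5-T8- cells. Ighm and Hbb-b1 were at 0.504 and 0.319 CPM against 0.788 and 1.87 CPM and at 1.07 and 0.478 CPM against 2.06 and 3.60 CPM without Tspan8. Lars2, a mitochondrial leucyl-tRNA synthetase, was at 216 and 131 CPM against 149 and 108 CPM in T8hi cells, with overlap, and at 103 and 135 CPM in Lgr5+T8- against 1188 and 796 CPM in Lgr5-T8- cells (3.43 ± 0.37, edgeR adjusted p = 0.00967), so its difference of effects lay in the Lgr5-T8- libraries. Col9a1 and Coch were lower with Lgr5 in both settings, Col9a1 at 1.98 and 4.27 CPM against 44.9 and 49.1 CPM and Coch at 1.54 and 1.55 CPM against 19.8 and 20.1 CPM without Tspan8. The difference of effects passed for Col9a1 (2.27 ± 0.32, edgeR adjusted p = 0.00951) and not for Coch (edgeR adjusted p = 0.608). Of the differences of effects given here and above, those of Frmpd4, Adamts6, Lars2 and Col9a1 missed the threshold with 1 library left out: Frmpd4 and Adamts6 without replicate 1 of either T8hi population, Frmpd4 also without Lgr5+T8- replicate 1, Lars2 without either Lgr5-T8- library and Col9a1 without either Lgr5+T8hi library (edgeR adjusted p 0.0532 to 0.21).

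**Figure D5:**
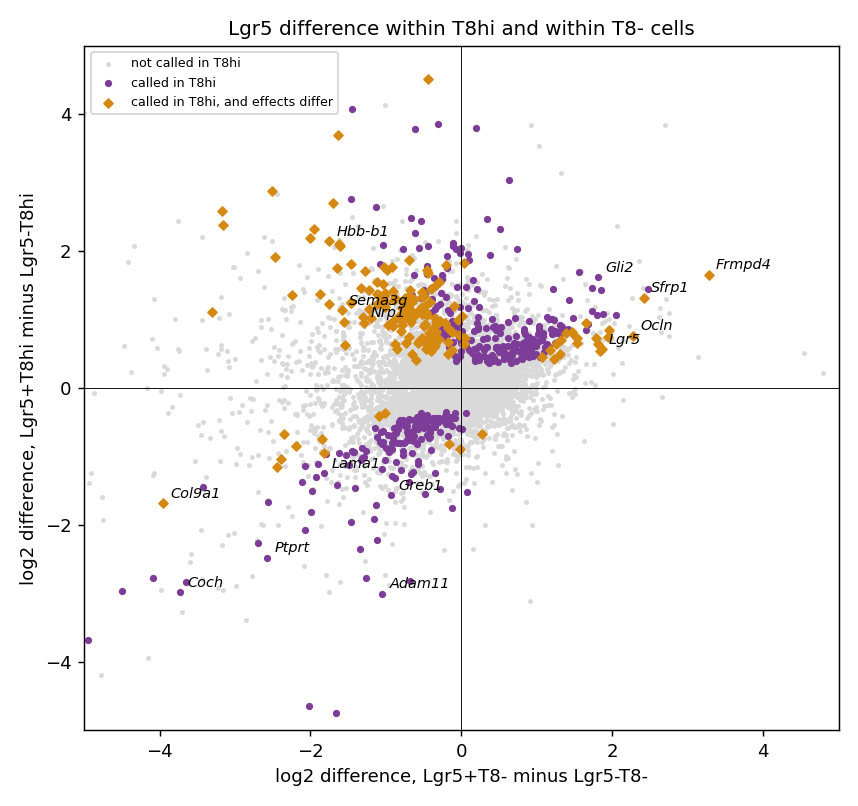
Log2 difference by Lgr5 within cells without Tspan8 (horizontal axis) and within T8hi cells (vertical axis) for each gene tested; 16 genes lie outside the axes. Purple points are called in T8hi cells, and orange diamonds are called there and also differ between the 2 settings; Sfrp1, Ptprt and Coch lie on the same side of 0 on both axes, and Nrp1, Sema3g and Hbb-b1 on opposite sides.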

How the data were processed

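Total RNA of sorted mammary basal cells was sequenced single-end, per the labels' protocols. What the authors deposited is an unnormalized read count for each of 27164 Entrez genes. Tools named in the submitters' processing notes are featureCounts, CASAVA 1.8.2, limma 3.24.14 and edgeR 3.10.2, with the build mm10. The aligner and the use of strand are not given in the sources used here, so overlapping genes are uncertain. Symbols and positions came from RefSeq (GRCm38.p6) by Entrez identifier.

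All 8 libraries were fitted with edgeR 4.0.16 (R 4.3.3): population plus batch, TMM factors, filterByExpr with a minimum count of 10, robust quasi-likelihood F-tests, two-sided. This tested 16526 genes and left out 10638, with 3 residual degrees of freedom. P-values were adjusted by Benjamini-Hochberg over all genes tested, with a threshold of 0.05. CPM used TMM-adjusted library sizes. Replicates were not duplicates of 1 library (chi-square per degree of freedom 36.0 in Lgr5+T8hi and 50.2 in Lgr5-T8hi). The labels give a batch equal to the replicate number, and this pairs the libraries. The 50 gene lists are described by counts and medians. Members and lists were chosen with earlier results of these data known.

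Genes named were Lgr5, Tspan8, the 12 highest and 12 lowest log2 differences among called genes that averaged 5 CPM or more over the T8hi libraries and had the same sign in both batches and a proper symbol, up to 4 called and the first 2 tested members of each list, and the 4 highest and 4 lowest for the difference of effects. Levels of a few further list members are given as examples chosen after their values were seen. On simulated counts of this comparison the test recovered 75.0% of genes changed 1.5-fold (16380 genes in the step) and 99.0% of those changed 2-fold (16381 genes). False calls made up 8.54% and 8.33% of calls. The changed genes were drawn from those averaging 5 CPM or more, so recovery below that level was not tested. Alternatives were no replicate block, RLE factors, no count filter, a filter of 1 CPM in 2 libraries, limma-voom (limma 3.58.1), DESeq2 1.42.0, the 4 T8hi libraries alone and leaving out each library. Both limma-voom and DESeq2 without the block were added after the data had been seen. Where a left-out library left 1 in a population, that library was assumed to vary like the others. A few list members are not reported here.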

Additional observations from a re-analysis of the deposited data

Results flagged for a closer look

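The test of the difference between the Lgr5 effect in T8hi cells and that in cells without Tspan8 (edgeR, adjusted p under 0.05 over all genes tested) singled out 42 of the genes named above. Most of these genes were named for a call in T8hi cells, a difference that this test includes, so their signs are not separate support. Values in brackets are the difference of effects on the log2 scale, T8hi minus without Tspan8. It was negative for Lgr5 (-1.30), Sfrp1 (-1.10), Col6a1 (-0.63), Col6a2 (-0.59), Ntn4 (-0.61), Frmpd4 (-1.63), Ocln (-1.51), Slpi (-1.21), Adamts6 (-1.57) and Esyt3 (-1.52). Among endothelial, immune and erythroid list members it was positive for Emcn (1.85), Cd34 (1.89), Esam (1.87), Ptprc (2.12), H2-Aa (1.29), Laptm5 (1.99), Hbb-b1 (3.90) and Hbb-bs (4.21). It was also positive for the fibroblast, pericyte and adipocyte markers Col1a2 (0.81), Vtn (1.38) and Lpl (1.04) and the interferon and cytokine list members Ifit1 (1.04), Cxcl10 (0.94), Ifi44 (1.69), Ifit3 (1.19), Il33 (1.82) and Cxcl9 (1.06). The others with a positive value were Tgfbi (1.39), Areg (0.86), Nrp1 (2.25), Inpp5d (2.38), Tbx2 (1.11), Col9a1 (2.27), Lamc3 (1.67), Sema3d (1.36), Jam2 (1.16), Mmrn2 (1.92), Slco2b1 (2.32), Syt15 (2.11), Ighm (5.34), Sema3g (2.72) and Lars2 (3.43). For Tbx2, Col9a1, Lamc3 and Sema3d, which were lower with Lgr5 in both settings, a positive value means a smaller decrease in T8hi cells. Of these 42 calls, 21 were lost without Lgr5+T8hi replicate 1, 22 without its replicate 2, 12 and 9 without Lgr5-T8hi replicates 1 and 2, 10 and 14 without those of Lgr5+T8-, 10 and 7 without those of Lgr5-T8-, and all 42 in edgeR with no replicate block. The 16 called with each library left out were Cd34, Esyt3, Hbb-b1, Hbb-bs, Ighm, Il33, Jam2, Lamc3, Lgr5, Nrp1, Ocln, Sema3d, Sema3g, Sfrp1, Slpi and Tgfbi. No group had enough libraries for an outlier test.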

How the results depend on the processing

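With no replicate block, edgeR called 0 genes higher and 0 lower, limma-voom 0 and 0, and DESeq2 117 and 58, against 379 and 173 with batch as a block. For the difference of effects these were 1 and 0, 1 and 0, and 188 and 6, against 361 and 60, and 91 lower with no count filter. The 4 T8hi libraries alone gave 881 and 587. Leaving out each library in turn gave 23 to 597 higher and 11 to 356 lower, and 104 to 422 and 14 to 162 for the difference of effects. RLE factors, the CPM filter, DESeq2 and limma-voom kept each of these 4 counts within 1.5 times. Of the 552 calls, DESeq2 kept 456 (23 had no adjusted p), RLE 515, limma-voom 534 and the 4 libraries alone 539, while without the block edgeR and limma-voom kept 0 and DESeq2 147. All 552 kept their direction wherever an alternative gave a value, in fits to the libraries that had selected them. With 2 libraries a group, single genes rest on pairs of libraries, and false calls above the nominal rate in simulation limit each call.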
